A study of Mus musculus with 28 samples.

Results

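Gene expression in choroid plexus dissected from the lateral ventricles of aged male mice was compared between night and day by RNA sequencing in J20+ mice and in their J20- wild-type littermates, to ask whether the day-night change differed between the genotypes. The comparison used 16 of the 28 libraries of the series, chosen by their labels alone: every library from mice of 12 to 14 months, in 4 groups of 4. The groups were J20+ mice at night, J20+ mice at day, J20- mice at night and J20- mice at day. Day was zeitgeber time (ZT) 6, in the light phase in which mice mostly rest, and night was ZT18, in the dark phase in which they are mostly active. All mice were perfused with saline under isoflurane, and the dissected tissue was snap frozen. The J20 line is a mouse model of amyloid disease: it expresses human APP, the amyloid precursor protein, bearing familial Alzheimer mutations, under a platelet-derived growth factor promoter that acts mainly in neurons. Each library is labelled as a separate sample, and p-values measure the spread between these samples. The 12 libraries of wild-type mice of 3 to 4 months (4 at night, 4 at ZT6 with disrupted sleep and 4 at day) served for 1 purpose only, a list of night-day genes from mice that are not in the comparison.

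The choroid plexus is a folded sheet of epithelium around a vascular core that secretes cerebrospinal fluid (CSF), and it keeps its own circadian clock. In that clock the activators BMAL1 (gene Arntl) and CLOCK or NPAS2 bind E-box sequences and switch on the Period, Cryptochrome, REV-ERB (Nr1d1, Nr1d2) and PAR bZIP (Dbp, Tef, Hlf) genes. PER and CRY proteins then block the activators, REV-ERB proteins repress Arntl and Nfil3 through ROR elements, and DBP and NFIL3 compete at D-box sequences. Genes in different limbs of the loop therefore peak at different times of day.

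The 3 kinds of clock element are shown here in the promoters of 5 clock genes whose day-night values follow below. Sequences are RefSeq GRCm38.p6, 250 bases ending at the last base before the transcription start, 5′ to 3′ on the gene's strand, with element matches in capitals. Per1 (chr11:69098699-69098948 on the plus strand), Cry1 (chr10:85185055-85185304 on the minus strand) and Ciart (chr3:95882229-95882478 on the minus strand) hold the E-box CACGTG. For Per1, which has 2 annotated starts, the window was picked for holding the E-box. It lies inside the annotated gene, which begins at base 69095108. Nfil3 (chr13:52981040-52981289 on the minus strand) holds the ROR element TAGGTCA on the opposite strand, read here as TGACCTA. Per3 (chr4:151044666-151044915 on the minus strand) holds the D-box TTATGTAA.
Per1: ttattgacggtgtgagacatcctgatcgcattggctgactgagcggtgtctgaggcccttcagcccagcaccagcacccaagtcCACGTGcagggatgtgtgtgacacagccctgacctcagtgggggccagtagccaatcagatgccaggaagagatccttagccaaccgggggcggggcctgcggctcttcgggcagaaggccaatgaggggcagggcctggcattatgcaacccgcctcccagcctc
Cry1: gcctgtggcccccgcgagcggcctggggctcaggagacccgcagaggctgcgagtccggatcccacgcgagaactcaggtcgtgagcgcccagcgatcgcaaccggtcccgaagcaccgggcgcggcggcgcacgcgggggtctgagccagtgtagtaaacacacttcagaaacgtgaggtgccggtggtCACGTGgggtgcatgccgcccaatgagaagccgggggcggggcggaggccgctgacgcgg
Ciart: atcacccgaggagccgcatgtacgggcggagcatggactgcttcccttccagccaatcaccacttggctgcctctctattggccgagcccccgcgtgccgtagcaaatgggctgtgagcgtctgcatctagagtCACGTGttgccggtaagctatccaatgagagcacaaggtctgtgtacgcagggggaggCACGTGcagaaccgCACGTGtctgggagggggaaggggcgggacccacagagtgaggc
Nfil3: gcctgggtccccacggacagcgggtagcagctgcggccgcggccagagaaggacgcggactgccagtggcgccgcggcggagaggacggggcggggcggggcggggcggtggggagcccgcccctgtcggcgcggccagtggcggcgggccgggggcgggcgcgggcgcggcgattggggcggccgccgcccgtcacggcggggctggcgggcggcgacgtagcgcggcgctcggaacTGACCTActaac
Per3: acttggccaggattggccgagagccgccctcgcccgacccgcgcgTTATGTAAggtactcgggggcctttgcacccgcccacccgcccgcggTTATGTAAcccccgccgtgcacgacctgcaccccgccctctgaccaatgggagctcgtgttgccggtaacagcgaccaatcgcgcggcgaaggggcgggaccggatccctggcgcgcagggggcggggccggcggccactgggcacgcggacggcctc
The matches begin 166 bases before the start in Per1, 60 in Cry1, 116, 58 and 44 in Ciart, 12 in Nfil3, and 205 and 158 in Per3. Searched on both strands, the E-box occurs in 6.02% of all 32851 promoter windows of this length, the ROR element in 2.23% and the D-box in 0.819%. Of 19 core clock genes with a promoter in the table, 5 hold the E-box in any of their windows (Bhlhe41, Ciart, Cry1, Per1 and Tef), 1 the ROR element and 1 the D-box. Counted by gene in the same way, the shares over all genes are 6.86%, 2.55% and 0.977%. A match is a description of the letters and was not tested as a binding site.

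The libraries differed in their level of neural marker genes, which was highest on average in the J20- night group. A neural score, the mean log2 CPM (counts scaled to equal library size) of neuron, oligodendrocyte and astrocyte markers, was 2.47 ± 1.47 in J20+ night and 2.89 ± 1.72 in J20+ day libraries, and 5.26 ± 1.17 in J20- night and 2.64 ± 1.49 in J20- day libraries (SD, n = 4 each). It ran from 1.06 to 4.36 in J20+ night, 1.23 to 5.02 in J20+ day, 3.61 to 6.23 in J20- night and 1.0 to 4.46 in J20- day libraries, so night and day overlapped in both genotypes. Night against day gave p = 0.714 in J20+ and p = 0.0571 in J20- mice (exact two-sided permutation tests; adjusted over 26 tests, 0.981 and 0.223). The epithelial marker score was 9.89 ± 0.592 in J20+ night and 9.96 ± 0.369 in J20+ day libraries, and 9.32 ± 0.290 in J20- night and 10.1 ± 0.188 in J20- day libraries (exact p = 0.914 and 0.0286, the smallest p that 4 against 4 can give; adjusted 0.981 and 0.223). Epithelial markers were high in all 16 libraries, as the tissue label says, and in J20- mice every night library lay below every day library. J20+ night library 2 stood apart in its group, with an epithelial score of 9.0 against 10.2 in each of the other J20+ night libraries. Its neural score, 4.36, was the highest of its group (next 2.86). Epithelial scores of the J20- night libraries ran from 9.05 to 9.70. In these bulk samples fewer cells of a type and less RNA per cell cannot be told apart. Total counts were 15.5M to 30.9M in J20+ night, 19.6M to 43.9M in J20+ day, 14.6M to 18.4M in J20- night and 15.1M to 20.5M in J20- day libraries. The counts are of mouse genes: App lay between 495 and 2252 CPM in the J20+ and between 765 and 1996 CPM in the J20- libraries, so it gives no check of the genotype labels.

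**Figure D1:**
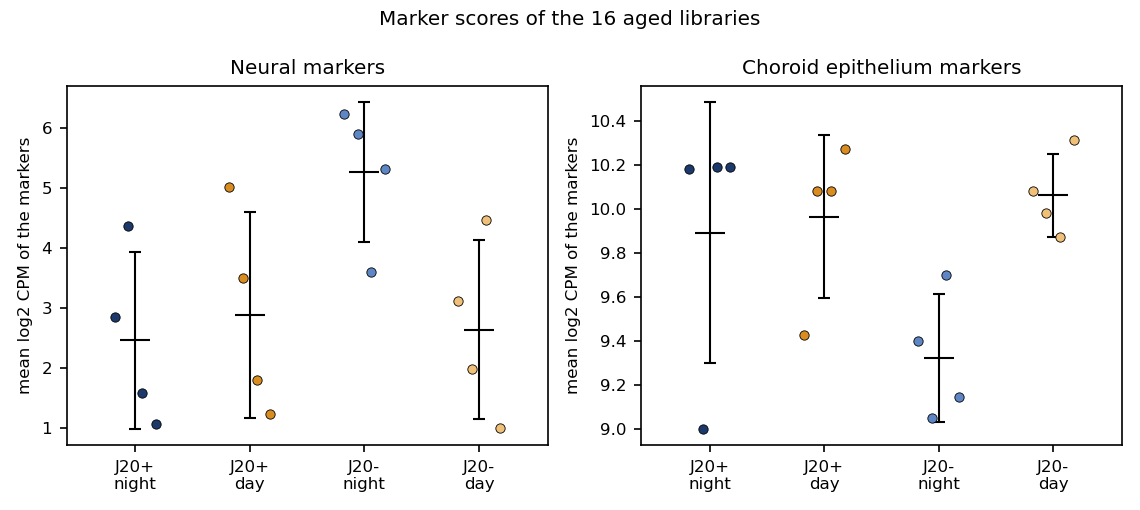
Mean log2 CPM of the neural markers (left) and of the choroid epithelium markers (right) in each of the 16 aged libraries; points are libraries, and bars give the mean and SD of each group of 4. The neural score of J20- night libraries, 3.61 to 6.23, is the highest on average, and their epithelial score, 9.05 to 9.70, lies below that of every J20- day library.

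No gene's day-night difference passed the test for a difference between J20+ and J20- mice after adjustment for multiple testing. Nr1d1 and Dbp were low and Cry1 and Nfil3 high at night in every library of both genotypes. The interaction is the night minus day difference in J20+ mice minus that in J20- mice, on the log2 scale. It was tested with edgeR's quasi-likelihood test, and a gene is called where the Benjamini-Hochberg adjusted p is under 0.05. Of 16065 genes tested, 0 were called (0%), with a smallest adjusted p of 0.359, while 1992 (12.4%) had an unadjusted p under 0.05. Of these 1992 genes, 474 had a positive and 1518 a negative interaction, and 1509 of the negative ones were higher at night than at day in J20- mice. In a model that also held the neural score, 0 genes were called and 419 (2.61%) had an unadjusted p under 0.05, of which 122 were among the 1992. The score itself differed between night and day by -0.42 in J20+ and 2.62 in J20- mice, so it overlaps with the interaction. Fewer calls or smaller interactions with the score can follow from that overlap alone, and their cause was not tested.

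The count of 0 depended on the fit and on the libraries kept. Without J20+ night library 2, whose epithelial score was the lowest of its group, 3409 of 16310 genes were called (1821 higher and 1588 lower). Limma-voom, which gave that library a weight of 0.0720, called 5351 (2912 higher and 2439 lower). DESeq2 called 9. Without both that library and J20+ day library 1, 0 of 16115 genes were called. The other 15 libraries, each left out alone, also left 0. When the neural score was added, the fit without J20+ night library 2, limma-voom and DESeq2 each called 0 genes. Without J20+ night library 2, the called genes held 5 of 24 core clock members, 8 of 40 young night-day genes and 14 of 29 members of an endoplasmic reticulum (ER) folding list, against 20.9% of all genes tested. By limma-voom they held 5 of 24, 13 of 40 and 22 of 29, against 33.3% of all genes tested.

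The precision of the comparison is given by its intervals. The median standard error of an interaction was 0.37 on the log2 scale, and the 95% interval lay inside a 2-fold difference in either direction for 6768 genes (42.1%) and inside a 1.5-fold difference for 2165 (13.5%). For the core clock, 12 of 24 tested genes had an interval inside 2-fold and 1 had it inside 1.5-fold. The night minus day difference had the same sign in J20+ and J20- mice for 9707 of all genes (60.4%) and for 19 of the 24 core clock genes (15 to 20 with each library left out in turn). The median interaction was 0.06 over all genes (-0.03 with the neural score in the model) and 0.11 over the core clock (-0.07 with the score, -0.07 without J20+ night library 1, and -0.03 with upper-quartile scaling, which put the median of all genes at -0.06). Of the core clock genes, 15 had a positive and 9 a negative interaction, against 8904 and 7161 of all genes tested. In the interaction 0 of them were called, and 1 had an unadjusted p under 0.05, against 12.4% of all genes. In night against day, the whole core clock list held 3 genes called higher and 2 called lower in J20+ mice, and 1 called higher in J20- mice. Among the core clock genes named below, only Nr1d1, Cry1, Dbp and Nfil3 were called, and only in J20+ mice. These calls do not set the genotypes apart. By edgeR, Nr1d1 in J20- mice had an unadjusted p of 1.09e-05 and was not called (adjusted 0.0583). Cry1 in J20+ mice had an unadjusted p of 1.94e-05 and was called (adjusted 0.0451).

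The activators stand at the head of the loop. Arntl had 11.5, 19.5, 46.1 and 27 CPM in J20+ night libraries and 15.5, 6.57, 8.95 and 5.72 CPM in J20+ day libraries, and 19.9, 22.8, 16.6 and 19.1 CPM in J20- night libraries and 10.4, 6.42, 9.29 and 7.84 CPM in J20- day libraries. Every J20- night library lay above every J20- day library, and in J20+ mice the groups overlapped through J20+ night library 1 and J20+ day library 1. The night minus day difference was 1.5 ± 0.37 (log2 ± SE) in J20+ and 1.20 ± 0.37 in J20- mice, and the interaction was 0.30 ± 0.52 (95% interval -0.82 to 1.41). Npas2, the partner that can stand in for CLOCK, differed by 0.46 ± 0.28 in J20+ and -0.03 ± 0.28 in J20- mice, with overlapping groups in both. Rora, an activator at ROR elements, and Arntl2, a paralog of Arntl, had interactions of 1.53 ± 1.14 and -0.90 ± 0.76, and -1.18 and 0.19 with the neural score. Clock had 172, 36.2, 285 and 257 CPM in J20+ night libraries and 118, 111, 211 and 209 CPM in J20+ day libraries, and 72.0, 53.1, 56.7 and 52.4 CPM in J20- night libraries and 111, 74.4, 80.4 and 228 CPM in J20- day libraries. J20+ night library 2 is far below the other J20+ night libraries, and the J20- night libraries all lie below the J20- day libraries. The interaction of Clock was 1.28 ± 0.70 (95% interval -0.20 to 2.77), and -0.07 with the neural score in the model.

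Of the REV-ERB genes, repressors that feed back on Arntl, Nr1d1 was low at night in both genotypes. Nr1d1 had 22, 35.2, 23.1 and 13.9 CPM in J20+ night libraries and 111, 97.8, 106 and 97.1 CPM in J20+ day libraries, and 32.4, 38.1, 30.0 and 45.9 CPM in J20- night libraries and 87.4, 129.8, 112 and 88.8 CPM in J20- day libraries. All night libraries lay below all day libraries in each genotype. Nr1d1 fell at night in J20+ mice, to a 4.38-fold lower level (log2 -2.13 ± 0.24, adjusted p = 0.00194 by edgeR) and its difference in J20- mice was -1.51 ± 0.23 (adjusted p = 0.0583). The interaction was -0.62 ± 0.32 (95% interval -1.30 to 0.07, adjusted p = 0.431), and -0.30 with the neural score. Without J20+ night library 2 the interaction of Nr1d1 was -0.87 and was called (adjusted p = 0.0426). Nr1d2 had 215, 72.5, 70.3 and 136 CPM in J20+ night libraries and 164, 210.3, 271 and 296 CPM in J20+ day libraries, and 93.9, 82.4, 89.4 and 81.2 CPM in J20- night libraries and 186, 207, 165 and 269 CPM in J20- day libraries. J20+ night library 1 sits inside the day range, and the J20- groups do not overlap. Nr1d2, the paralog of Nr1d1, differed by -0.93 ± 0.31 in J20+ and -1.25 ± 0.31 in J20- mice (interaction 0.32 ± 0.44).

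Among the Period and Cryptochrome genes, whose proteins block the activators, Cry1 was higher at night in every library of both genotypes. Cry1 had 50.7, 28.4, 57.0 and 62.2 CPM in J20+ night libraries and 17.2, 16.3, 22.8 and 22.3 CPM in J20+ day libraries, and 40.9, 32.9, 47.2 and 35.2 CPM in J20- night libraries and 21.2, 18.9, 16.4 and 22.3 CPM in J20- day libraries. The groups do not overlap in either genotype, although J20+ night library 2 is the lowest of its group. Cry1 differed by 1.34 ± 0.22 in J20+ mice (adjusted p = 0.0451) and 0.99 ± 0.21 in J20- mice (adjusted p = 0.144), with an interaction of 0.35 ± 0.30 (95% interval -0.29 to 0.99). That interaction was called in 1 of 31 alternatives (adjusted p = 0.0372 by limma-voom). Per2 had 104, 357, 55.7 and 104 CPM in J20+ night libraries and 36.4, 71.6, 42.7 and 52.4 CPM in J20+ day libraries, and 112, 183, 148 and 193 CPM in J20- night libraries and 44.0, 64.9, 73.3 and 54.0 CPM in J20- day libraries. The value of 357 CPM belongs to J20+ night library 2, the J20+ groups overlap through J20+ night library 3, and the J20- groups do not overlap. Per2 differed by 1.61 ± 0.45 in J20+ and 1.43 ± 0.44 in J20- mice, and its interaction interval, -1.14 to 1.49, is wide. Per1 had 64.1, 168, 77.4 and 72.0 CPM in J20+ night libraries and 52.6, 99.4, 43.2 and 70.1 CPM in J20+ day libraries, and 111, 164, 117 and 166 CPM in J20- night libraries and 68.8, 64.3, 60.3 and 58.2 CPM in J20- day libraries. J20- night libraries all exceed J20- day libraries, while J20+ night and day libraries overlap. Per1, which also responds to glucocorticoids and neural activity, differed by 0.52 ± 0.30 in J20+ and 1.15 ± 0.31 in J20- mice. The interaction of Per1 was -0.63 ± 0.43 (95% interval -1.54 to 0.29), -0.28 with the neural score, and -1.04 (adjusted p = 0.0432) without J20+ night library 2. Per1, Per2, Per3 and Cry2 were not called in either genotype. Per3 differed by -0.16 ± 0.32 in J20+ and -0.17 ± 0.32 in J20- mice, and Cry2 by 0.05 ± 0.14 and 0.14 ± 0.14.

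**Figure D2:**
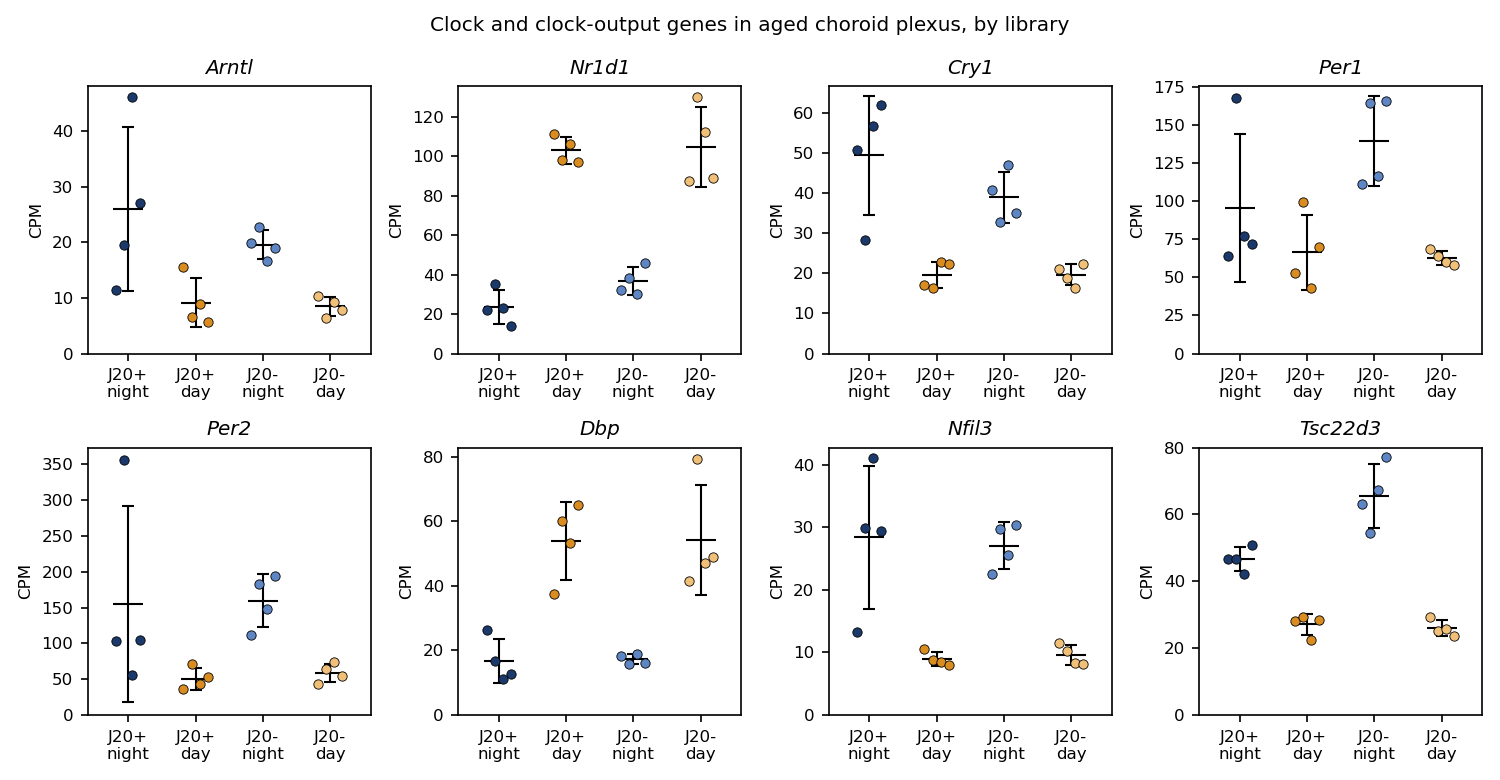
CPM of 8 clock and clock-output genes in each of the 16 aged libraries, with the mean and SD of each group of 4. Night and day separate in both genotypes for Nr1d1, Cry1, Dbp, Nfil3 and Tsc22d3, while the J20+ groups overlap for Arntl, Per1 and Per2.

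The D-box limb holds the activators Dbp, Tef and Hlf and the repressor Nfil3. Dbp had 26.3, 16.8, 11.3 and 12.6 CPM in J20+ night libraries and 37.5, 60.2, 53.1 and 65.2 CPM in J20+ day libraries, and 18.3, 15.7, 18.9 and 16.2 CPM in J20- night libraries and 41.4, 79.4, 47.1 and 49.0 CPM in J20- day libraries. Every night library lay below every day library in each genotype. Dbp, an activator at D-boxes, differed by -1.69 ± 0.27 in J20+ mice (adjusted p = 0.0451) and -1.65 ± 0.27 in J20- mice (adjusted p = 0.0756), and the interaction was -0.04 ± 0.37 (95% interval -0.84 to 0.76). Nfil3 had 13.3, 29.9, 41.1 and 29.5 CPM in J20+ night libraries and 10.6, 8.78, 8.41 and 7.98 CPM in J20+ day libraries, and 22.5, 29.7, 25.6 and 30.5 CPM in J20- night libraries and 11.5, 10.2, 8.34 and 8.23 CPM in J20- day libraries. Nfil3, the repressor at the same sites, was higher in every night library of both genotypes. It differed by 1.67 ± 0.26 in J20+ mice (adjusted p = 0.0451) and 1.5 ± 0.26 in J20- mice (adjusted p = 0.0887), with an interaction of 0.17 ± 0.36 (95% interval -0.60 to 0.93). The J20+ calls at an adjusted p of 0.0451 were close to the threshold: with each of the 16 libraries left out in turn, that of Cry1 was lost in 15, that of Nfil3 in 15 and that of Dbp in 14. Tef and Hlf, the other PAR bZIP activators, were not called in either genotype. Tef differed by -0.02 ± 0.20 in J20+ and -0.07 ± 0.20 in J20- mice, and Hlf by -0.33 ± 0.25 and -0.11 ± 0.26. The interactions of Tef and Hlf were 0.05 ± 0.29 and -0.22 ± 0.36, and with the neural score those of Dbp, Nfil3, Tef and Hlf were -0.16, 0.18, -0.06 and -0.70.

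The E-box repressors Bhlhe40, Bhlhe41 and Ciart and the casein kinases of PER proteins complete the loop. Bhlhe41 had 9.23, 3.68, 7.6 and 7.01 CPM in J20+ night libraries and 10.8, 10.9, 14.4 and 18 CPM in J20+ day libraries, and 7.42, 5.82, 2.82 and 5.34 CPM in J20- night libraries and 8.59, 11.1, 9.11 and 14.3 CPM in J20- day libraries. Night libraries lay below day libraries in both genotypes. Bhlhe41 differed by -0.97 ± 0.31 in J20+ and -1.01 ± 0.32 in J20- mice, and the interaction was 0.04 ± 0.44. Ciart, at a mean of 4.95 ± 3.08 CPM in J20+ night, 8.55 ± 3.85 in J20+ day, 6.90 ± 2.23 in J20- night and 8.95 ± 3.96 in J20- day libraries (SD, n = 4 each), overlapped in both genotypes (interaction -0.42 ± 0.66). Bhlhe40 and the casein kinase Csnk1d had interactions of 0.36 ± 0.27 and 0.34 ± 0.21. Csnk1e, a kinase that marks PER proteins for breakdown, differed by 0.04 ± 0.18 in J20+ and 0.57 ± 0.18 in J20- mice (interaction -0.54 ± 0.26, 95% interval -1.09 to 0.02; -0.14 with the neural score). Rorb had 0.899, 1.24, 0.371 and 0.313 CPM in J20+ night libraries and 6.55, 1.58, 0.245 and 0.351 CPM in J20+ day libraries, and 9.13, 15, 0.991 and 4.68 CPM in J20- night libraries and 1.44, 0.735, 1.60 and 0.448 CPM in J20- day libraries. Rorb, a nuclear receptor at ROR elements that is mostly made in neurons, overlapped between night and day in both genotypes and had the only unadjusted p under 0.05 in the list (interaction -4.45 ± 1.37, 95% interval -7.38 to -1.52). Its interaction was -0.49 with the neural score in the model. In the fit without J20+ night library 2, the 5 clock genes called in the interaction were Per1, Nr1d1, Csnk1e, Clock and Rorb, with values of -1.04, -0.87, -0.76, 1.64 and -4.84.

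**Figure D3:**
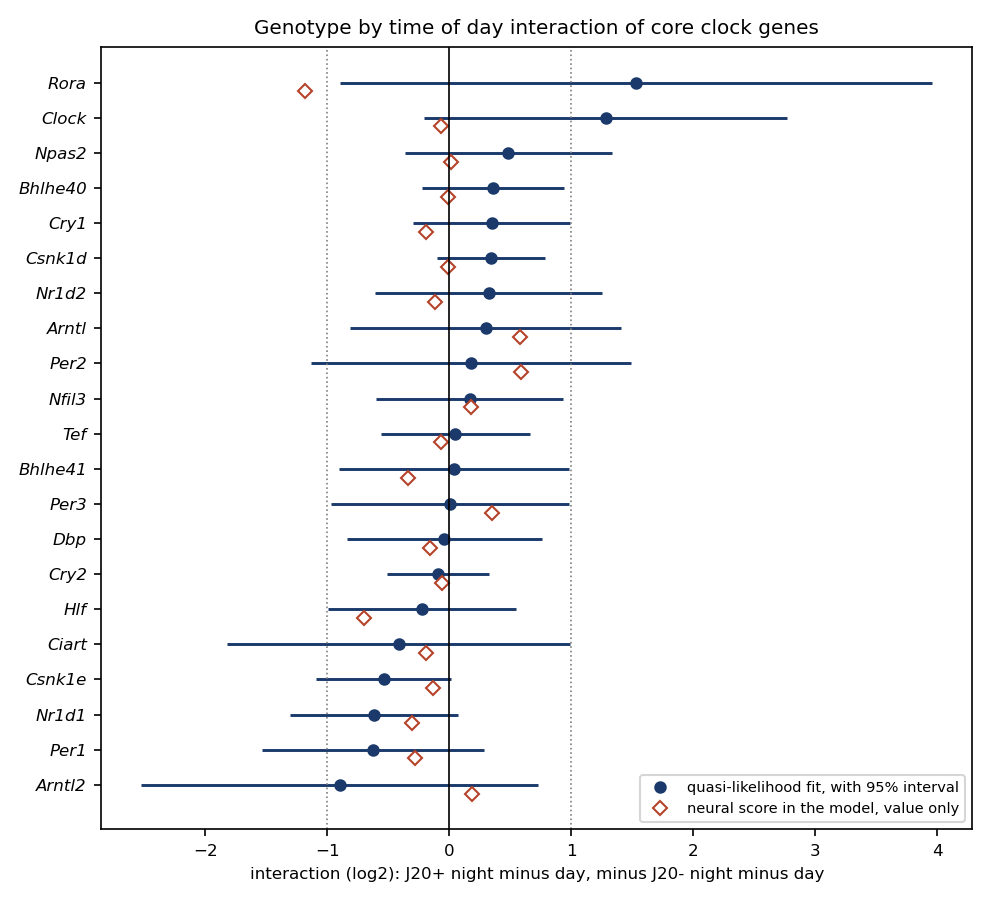
Interaction (log2) of 21 core clock genes: filled points and lines give the quasi-likelihood value and its 95% interval, open diamonds the value with the neural score in the model, and dotted lines mark a 2-fold difference. All intervals include 0; Rorb, whose interval does not, is left out for its size (-4.45).

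The genes that differed between night and day on average over both genotypes form a list chosen without regard to genotype. The average called 20 genes (0.124%), 11 higher and 9 lower at night, and all 20 had the same sign in J20+ and J20- mice, which the choice by the average favours. In their interaction 0 of the 20 were called (0%), 1 had an unadjusted p under 0.05, against 12.4% of all genes, and 14 had an interval inside 2-fold, against 42.1% of all genes. The choice by the average also favours narrow intervals, with a median half-width of 0.62 against 0.79 over all genes. The larger share therefore does not measure likeness of the genotypes. Limma-voom called 4 of the 20 in the interaction, and the fit without J20+ night library 2 called 2. In the same fit, night against day called 7 genes in J20+ mice (0.0436%) and 2 in J20- mice (0.0124%). Both of the 2 were among the 7, and all 7 were among the 20. Neither genotype was fitted by itself, and all 16 libraries shared the estimate of each gene's spread. The average is made from the J20+ and J20- differences of the same libraries, which favours its overlap with their calls. Unadjusted p under 0.05 was found for 1191 genes (7.41%) in J20+ and 5002 (31.1%) in J20- mice. These counts moved with the libraries kept: J20+ mice gave 5 without J20+ night library 2 and 2 to 4 without each of the other 15 libraries. The average gave 78 without J20+ night library 2 and 41 without J20+ day library 1. It gave 12 without any 1 of J20+ night library 4, J20+ day library 4, J20- night libraries 1, 2 and 4 and J20- day library 3, 13 without J20- night library 3, and 14 to 24 otherwise. J20- mice gave 5449 without J20+ night library 2, 100 without J20- night library 3, 9 without J20+ day library 1, 4 without J20+ night library 1, and 2 or 3 otherwise.

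The clock genes Nr1d1, Dbp, Nfil3 and Cry1 were among the 20. Tsc22d3 (GILZ), a glucocorticoid-induced leucine zipper protein, was called in both genotypes. Tsc22d3 had 46.8, 46.5, 42.3 and 51.0 CPM in J20+ night libraries and 28.1, 29.3, 22.4 and 28.5 CPM in J20+ day libraries, and 63.0, 54.3, 67.2 and 77.3 CPM in J20- night libraries and 29.4, 25, 25.8 and 23.7 CPM in J20- day libraries. Every night library exceeded every day library in each genotype, the day libraries of the genotypes overlapped, and all J20- night libraries lay above all J20+ night libraries. Tsc22d3 was 1.72-fold higher at night in J20+ mice (log2 0.78 ± 0.13, adjusted p = 0.0451) and 2.52-fold higher in J20- mice (log2 1.33 ± 0.13, adjusted p = 3.14e-04). The interaction was -0.55 ± 0.18 (95% interval -0.93 to -0.17, adjusted p = 0.359), and -0.51 with the neural score in the model. Without J20+ night library 2 the interaction of Tsc22d3 was -0.54 and was called (adjusted p = 0.0492), the only 1 of 31 alternatives to call it. The J20+ call of Tsc22d3 was lost with any of the 16 libraries left out, with adjusted p between 0.0559 and 0.316, and the average call was kept in all 31 alternatives.

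A transporter and several enzymes were among the 20. Slc22a8 had 283, 391, 231 and 236 CPM in J20+ night libraries and 120.3, 170.2, 140.2 and 154 CPM in J20+ day libraries, and 272, 273, 329 and 276 CPM in J20- night libraries and 159, 160.4, 172 and 147 CPM in J20- day libraries. Slc22a8 (OAT3), which clears organic anions from CSF, was higher in every night library of both genotypes, by 0.97 ± 0.17 in J20+ and 0.85 ± 0.17 in J20- mice (interaction 0.12 ± 0.24, 95% interval -0.39 to 0.62). Sult1a1 had 46.0, 53.6, 51.2 and 45.8 CPM in J20+ night libraries and 23.1, 24.2, 29.3 and 22.6 CPM in J20+ day libraries, and 33.4, 46.9, 68.1 and 55.7 CPM in J20- night libraries and 30.0, 28.7, 26.1 and 28.2 CPM in J20- day libraries. Sult1a1, a sulfotransferase for phenols, was likewise higher at night without overlap, by 0.99 ± 0.17 in J20+ and 0.85 ± 0.17 in J20- mice (interaction 0.13 ± 0.24, 95% interval -0.38 to 0.65). Osgin1, an oxidative stress-induced growth inhibitor, differed by 0.84 ± 0.16 in J20+ and 0.73 ± 0.16 in J20- mice (interaction 0.11 ± 0.22). Por, the reductase that supplies electrons to cytochromes P450, differed by -0.59 ± 0.18 in J20+ and -0.87 ± 0.18 in J20- mice, with an interaction of 0.27 ± 0.25 (95% interval -0.26 to 0.80). The cytochrome Cyp2s1 differed by -0.61 ± 0.19 in J20+ and -0.98 ± 0.19 in J20- mice (interaction 0.37 ± 0.27, 95% interval -0.21 to 0.95).

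RNA-binding proteins and a receptor were also among the 20. Tra2a had 157, 231, 163 and 227 CPM in J20+ night libraries and 82.2, 83.2, 46.7 and 64.5 CPM in J20+ day libraries, and 136, 148, 189.6 and 176 CPM in J20- night libraries and 105, 107, 87.7 and 61.1 CPM in J20- day libraries. Tra2a, a splicing factor, was higher in every night library of both genotypes, by 1.49 ± 0.23 in J20+ mice (adjusted p = 0.0451) and 0.85 ± 0.22 in J20- mice (adjusted p = 0.144). Its interaction was 0.64 ± 0.31 (95% interval -0.03 to 1.31) and 0.83 with the neural score, and it was called in 1 of 31 alternatives (adjusted p = 0.0171 by limma-voom). The J20+ call of Tra2a was lost with any of the 16 libraries left out (adjusted p 0.0524 to 0.222). Cirbp had 44.2, 43.6, 33.9 and 23.5 CPM in J20+ night libraries and 69.4, 73.4, 87.6 and 60.9 CPM in J20+ day libraries, and 48.2, 56.2, 43.5 and 52.6 CPM in J20- night libraries and 55.8, 92.3, 82.6 and 69.6 CPM in J20- day libraries. Cirbp, a cold-inducible RNA-binding protein, was lower at night without overlap in J20+ mice and with overlap in J20- mice (-1.0 ± 0.20 and -0.58 ± 0.20, interaction -0.42 ± 0.28). Ngfr had 16.1, 7.07, 16.6 and 11.5 CPM in J20+ night libraries and 22.3, 33.6, 36.4 and 22.8 CPM in J20+ day libraries, and 13.9, 9.71, 13.6 and 10.9 CPM in J20- night libraries and 32.5, 25.6, 24.4 and 26 CPM in J20- day libraries. Ngfr, the low-affinity neurotrophin receptor, was lower at night without overlap in both genotypes, with differences of -1.16 ± 0.25 in J20+ and -1.17 ± 0.25 in J20- mice (interaction 0.01 ± 0.35). The average calls of Nr1d1, Dbp, Nfil3, Cry1, Tsc22d3, Slc22a8, Sult1a1, Osgin1, Tra2a and Ngfr were kept in all 31 alternatives. Those of Cirbp, Por and Cyp2s1 were lost with 12, 8 and 9 of the 16 libraries left out in turn, with adjusted p up to 0.126, 0.112 and 0.0982.

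**Figure D4:**
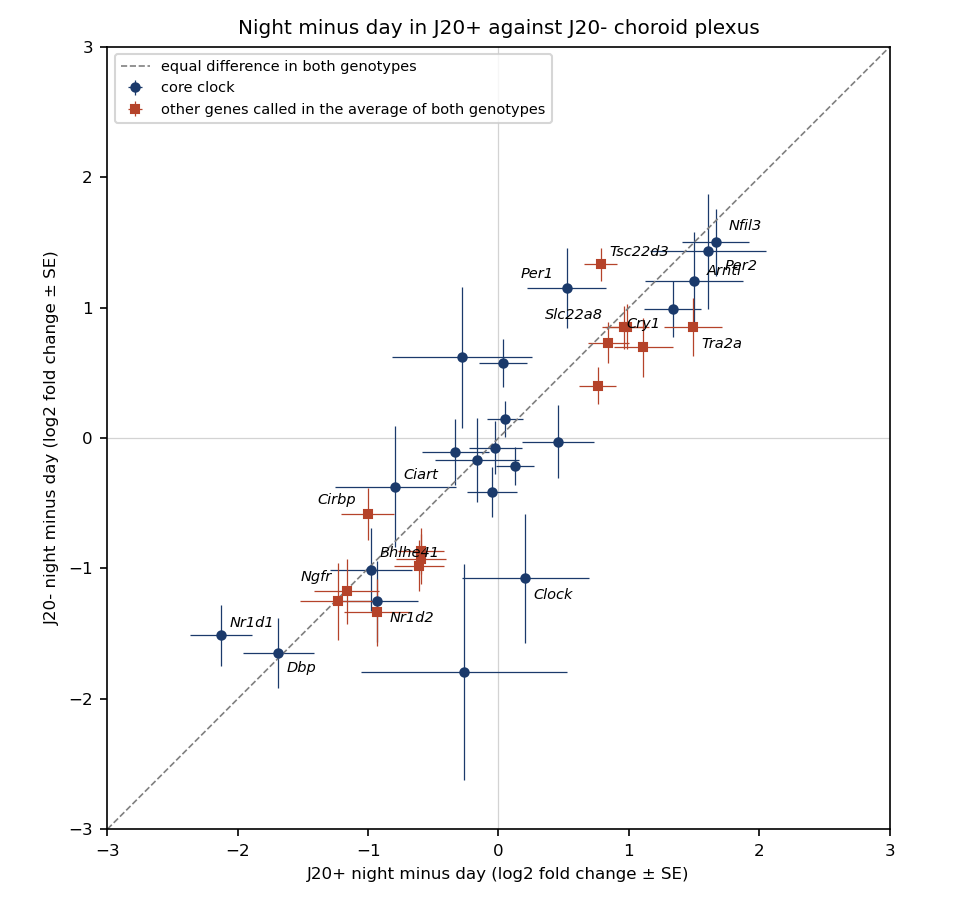
Night minus day difference (log2 fold change ± SE) in J20+ mice (horizontal) against J20- mice (vertical) for 21 core clock genes and the other genes called in the average of both genotypes; the dashed line marks an equal difference. Dbp, Ngfr and Nfil3 lie near the line, Tsc22d3 and Per1 above it, and Nr1d1 farther from 0 in J20+ than in J20- mice.

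Night-day genes of young mice provide a list from mice that are in neither aged group. Young night against day called 40 of 14983 genes (0.267%), 21 higher and 19 lower at night (15 without young day library 3, 109 without young night library 4, and 18 to 33 without each of the other 10). Of these 40 genes, 39 had the young sign in J20+ mice and 33 had it in J20- mice, and 32 had the same sign in both genotypes. In the interaction 0 of the 40 were called (0%). An unadjusted p under 0.05 was found for 6 of the 40, against 12.4% of all genes, and for 2 of the 40 with the neural score in the model, against 2.61% of all genes, so the list lay near the background. The median interaction over the 40 was 0.30, against 0.06 over all genes. It was near 0 with the neural score, and without J20- day library 4 or J20+ day library 2 it was 0.18 or 0.20. With upper-quartile scaling it was 0.15. The 6 genes, given as a description, were Il1r1, Slc16a6, Hyou1, Sel1l, Xbp1 and Gkn3. Il1r1, the interleukin 1 receptor, differed by 0.70 ± 0.18 in J20+ and -0.07 ± 0.18 in J20- mice (interaction 0.77 ± 0.26, 95% interval 0.22 to 1.32; 0.39 with the neural score). Slc16a6, a monocarboxylate carrier, differed by 0.61 ± 0.22 in J20+ and -0.25 ± 0.22 in J20- mice (interaction 0.86 ± 0.32, 95% interval 0.18 to 1.54; 0.35 with the neural score).

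For protein folding genes of the ER the median night-day difference had opposite signs in the genotypes. Of 29 tested members, 28 had a positive interaction, against 8904 of all 16065 genes, and the median was 0.60 (0.18 with the neural score). In the interaction 0 of the 29 were called. An unadjusted p under 0.05 was found for 4, against 12.4% of all genes, and for 1 with the score, against 2.61%. The median night minus day difference of the list was 0.16 in J20+ and -0.38 in J20- mice, beside 0.02 and 0.03 over all genes. Gene by gene, 16 of the 29 had the same sign in both genotypes and 13 the opposite sign, against 60.4% with the same sign over all genes. Hspa5 had 1582, 692, 1997 and 2630.4 CPM in J20+ night libraries and 1149, 1671, 1136 and 1188 CPM in J20+ day libraries, and 1425, 870.0, 1777 and 970.4 CPM in J20- night libraries and 2204, 1676, 1687 and 1156 CPM in J20- day libraries. Hspa5 (BiP), the main ER chaperone, overlapped between night and day in both genotypes (0.42 ± 0.35 and -0.42 ± 0.35, interaction 0.84 ± 0.49, 95% interval -0.20 to 1.88). Hyou1 had 257, 146, 292 and 453 CPM in J20+ night libraries and 166, 211, 166 and 161 CPM in J20+ day libraries, and 187, 142, 168 and 151 CPM in J20- night libraries and 242, 164, 171 and 169 CPM in J20- day libraries. Hyou1, a co-chaperone of BiP, overlapped in both genotypes, since J20+ night library 2 was the lowest J20+ library (0.71 ± 0.26 and -0.21 ± 0.26, interaction 0.91 ± 0.36, 95% interval 0.13 to 1.69). Xbp1 had 218, 201, 233 and 337 CPM in J20+ night libraries and 123, 146, 107 and 129 CPM in J20+ day libraries, and 172, 173, 238 and 172 CPM in J20- night libraries and 181, 142, 139 and 119 CPM in J20- day libraries. Xbp1, the transcription factor of the unfolded protein response, was higher in every J20+ night than in every J20+ day library and overlapped in J20- mice (0.97 ± 0.19 and 0.38 ± 0.19, interaction 0.59 ± 0.26, 95% interval 0.03 to 1.16). Manf, Sdf2l1 and Creld2, other ER proteins on the young list, kept the night-high sign in both genotypes, with 0.98 ± 0.23 and 0.54 ± 0.23 for Manf, 0.57 ± 0.25 and 0.26 ± 0.25 for Sdf2l1, and 1.11 ± 0.23 and 0.70 ± 0.23 for Creld2. Among the epithelial markers 18 of 18 had a positive interaction with a median of 0.72 (0.16 with the neural score), and their median night-day difference was -0.01 in J20+ and -0.73 in J20- mice.

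Lists of other functions of the epithelium also had positive median interactions. Over all 16065 genes, 8904 interactions were positive and 7161 negative. The interaction was positive for 29 of 34 genes of CSF ion and water transport (median 0.41, and 0.26 with upper-quartile scaling), 21 of 27 genes secreted into CSF (0.28), 23 of 31 carriers (0.37), 16 of 24 junction genes (0.31) and 20 of 30 genes of amyloid handling (0.29). With the neural score in the model these medians were 0.11, 0.08, 0.11, -0.09 and 0.05, and 0 members of any of these lists were called in either fit. Slc12a7 (KCC4), a potassium chloride cotransporter of the epithelium, differed by -0.02 ± 0.14 in J20+ and -0.65 ± 0.14 in J20- mice (interaction 0.63 ± 0.20, 95% interval 0.19 to 1.06; 0.30 with the score). Cgn (cingulin), a tight junction scaffold, differed by 0.35 ± 0.14 in J20+ and -0.12 ± 0.14 in J20- mice (interaction 0.47 ± 0.19, 95% interval 0.06 to 0.89; 0.45 with the score). Lrp2 and Abcb1a, which move amyloid-beta across barriers, had interactions of -4.56 ± 1.68 and -2.68 ± 0.96 (95% intervals -8.14 to -0.98 and -4.73 to -0.64). Both were highest in J20+ day library 1, at 12.6 and 63.1 CPM, and with the score the interactions were -0.43 and -0.40.

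The interferon, immediate early and glucocorticoid response lists had negative median interactions. Over all 16065 genes, 7161 interactions were negative. Of 32 tested interferon response genes 28 had a negative interaction (median -0.72, and -0.12 with the neural score), with a median night minus day difference of -0.54 in J20+ and 0.33 in J20- mice. The interferon median was -0.01 without J20+ day library 1 and 0.00 without J20- night library 3. Ifit2, an interferon-induced RNA-binding protein, differed by -0.99 ± 0.37 in J20+ and 0.32 ± 0.37 in J20- mice (interaction -1.31 ± 0.53, 95% interval -2.44 to -0.19; -0.50 with the score). Of 25 immediate early genes 21 had a negative interaction (median -0.56, and -0.35 with the score), with medians of 0.13 in J20+ and 0.85 in J20- mice. The immediate early median was -0.93 without J20+ night library 2 and -0.35 without J20+ day library 1. Egr1 had 3.31, 4.01, 8.08 and 3.56 CPM in J20+ night libraries and 9.09, 6.15, 5.94 and 4.21 CPM in J20+ day libraries, and 24.5, 13.2, 3.96 and 60.5 CPM in J20- night libraries and 5.88, 5.48, 6.15 and 4.98 CPM in J20- day libraries. Egr1, a transcription factor induced by growth factors and neural activity, was high in 3 J20- night libraries and lay below every J20- day library in J20- night library 3 (interaction -2.60 ± 0.81, 95% interval -4.34 to -0.87; -2.02 with the score). Of 27 glucocorticoid response genes 17 had a negative interaction (median -0.31, and -0.24 with the score). No member of these 3 lists was called in either fit. Alongside, 20 of 20 neuron markers (median -3.76), 18 of 18 oligodendrocyte markers (-1.90), 14 of 16 astrocyte markers (-3.43) and 20 of 20 macrophage markers (-0.77) had negative interactions. The part of these cells in the list values was not tested. The fit with the score cannot decide it, because the score itself differed with genotype and time of day.

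**Figure D5:**
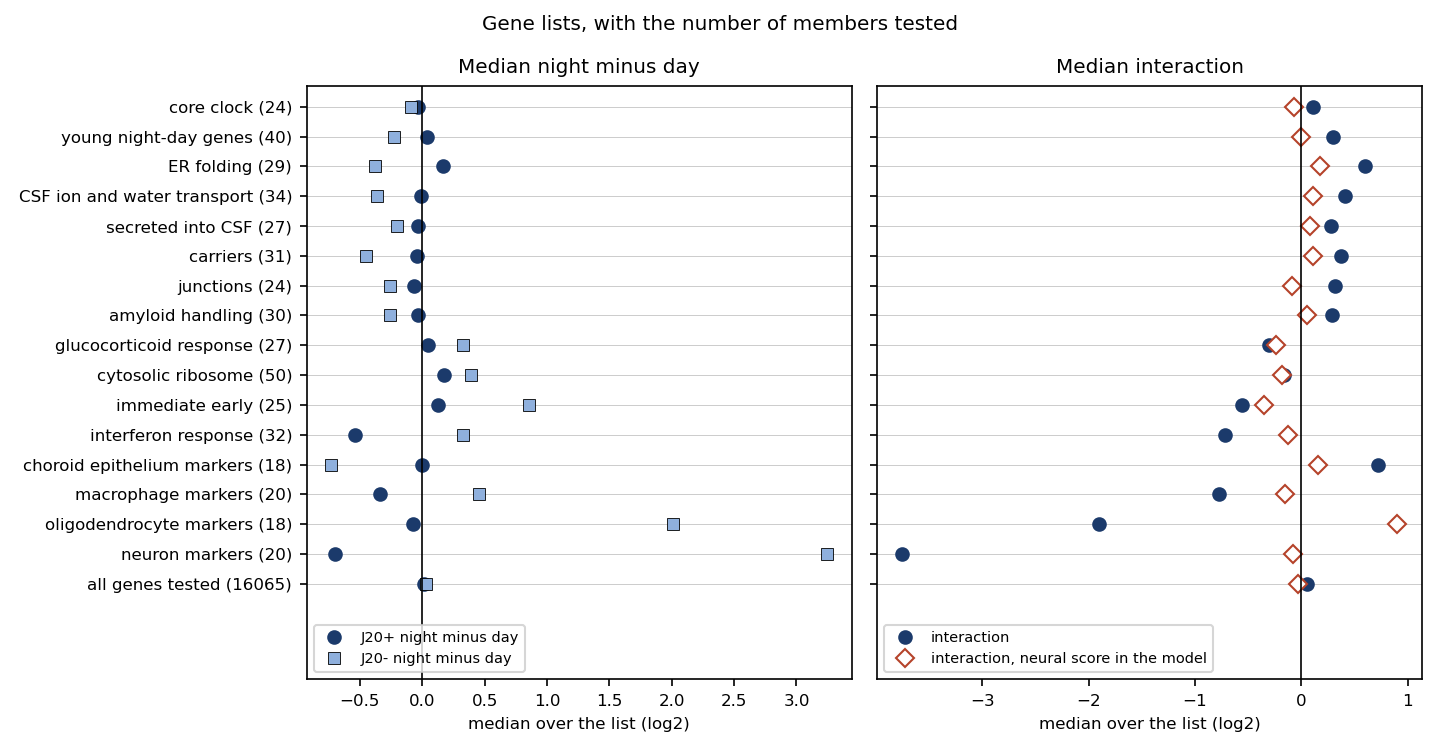
Median over the members of each gene list of the night minus day difference in J20+ and J20- mice (left) and of the interaction without and with the neural score in the model (right), in log2 units. Lists of the epithelium lie right of 0 and neural, macrophage and interferon lists left of 0 in the interaction, and the diamonds lie nearer 0 for all lists shown except the cytosolic ribosome. The neuron and oligodendrocyte markers are part of the score itself, so their shift is built in. The oligodendrocyte median went past 0, from -1.90 to 0.90.

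Among the genes with the smallest interaction p, Necab2 and Tafa5 stood out in the J20- night libraries. Necab2 had 10.9, 16.8, 12.0 and 11.5 CPM in J20+ night libraries and 16.2, 14.7, 15.9 and 11.7 CPM in J20+ day libraries, and 29.1, 34.8, 23.9 and 38.8 CPM in J20- night libraries and 16.9, 14.5, 15.7 and 15.6 CPM in J20- day libraries. Necab2, a neuronal calcium-binding protein, was above every other library in all 4 J20- night libraries, and the J20+ groups overlapped. It differed by -0.20 ± 0.17 in J20+ and 1.01 ± 0.17 in J20- mice, with an interaction of -1.21 ± 0.24 (95% interval -1.73 to -0.69, adjusted p = 0.359). The interaction of Necab2 was -0.92 with the neural score in the model, and it was called in 3 of 31 alternatives (adjusted p = 0.0342 by DESeq2, 0.00506 by limma-voom and 0.0422 by edgeR without J20+ night library 2). It was negative in all 31, from -1.39 to -0.87. Tafa5 had 26.7, 31.5, 28.5 and 30.7 CPM in J20+ night libraries and 37.2, 27.5, 32.6 and 32.2 CPM in J20+ day libraries, and 38.6, 40.8, 42.1 and 44.0 CPM in J20- night libraries and 31.2, 27.7, 27.8 and 28.2 CPM in J20- day libraries. Tafa5, a secreted chemokine-like protein of the nervous system, was above every other library in the J20- night group. Its interaction was -0.67 ± 0.15 (95% interval -0.99 to -0.35) and -0.63 with the score. 1500009C09Rik, a transcript without a named product, had the smallest p of all genes, with -0.33 ± 0.20 in J20+ and 1.29 ± 0.20 in J20- mice (interaction -1.62 ± 0.29, 95% interval -2.23 to -1.01; -1.29 with the score). Bex2 and Tceal3, small proteins of the same X-linked family cluster, had interactions of -1.02 ± 0.25 and -1.16 ± 0.28, and -0.86 and -1.03 with the score. These genes were picked by their p over 16065 genes and were not called in the edgeR fit of all 16 libraries, so their values are a description. Without J20+ night library 2, all 5 were called at an adjusted p of 0.0422, as they were by limma-voom, and DESeq2 called Necab2, Tafa5 and 1500009C09Rik. With the neural score in the model none of the 5 was called in any of these fits.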

How the data were processed

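The authors deposited raw read counts per gene; per the submitters' processing notes, reads were processed with FastQC, cutadapt, HISAT2, Picard and featureCounts on mm10, and DESeq2 is also named. Libraries were stranded poly(A) libraries, per the labels' protocols; for the strand setting, multimapping rule and annotation nothing is stated (not given in the sources used here). Entrez identifiers were matched to RefSeq symbols (GRCm38.p6) for 25275 of 27179 genes. The counts of the 16 aged libraries were fitted with edgeR 4.0.16's quasi-likelihood test (TMM scaling, filterByExpr, robust fit, 1 coefficient per group), with Benjamini-Hochberg adjustment over all 16065 genes tested and a threshold of 0.05. Each SE was derived from the log2 fold change and its F statistic. The young table was fitted alone, and its 40 called genes served as a list. The procedure was run on simulated counts with known interactions, drawn independently for each gene. They lacked differences in tissue makeup shared over many genes, so the run does not show how the fit behaves under them. CPM used TMM library sizes, and scores a prior count of 2. Per library, 14.6M to 43.9M counts limit the precision of low genes.

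The genes named were every tested member of the clock lists, called genes with the largest fold changes, the smallest interaction p, and members of the other lists. The members and lists were chosen with earlier results of these data known. A few genes picked by this rule are left unreported, although the counts include them. Alternatives were other scalings, DESeq2 1.42.0, limma-voom 3.58.1, filters, a neural or stromal score or a surrogate variable in the model, and each library left out.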

Additional observations from a re-analysis of the deposited data

Results flagged for a closer look

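Within each group of 4 libraries, a value was marked where its gap to the nearest other value exceeded Dixon's critical share of the group's range for 4 samples. Of 140 groups of values looked at in this way, 15 held such a library; chance marks about 1 in 20 groups. In J20+ night library 2, Per1 was highest at 168 CPM (next 77.4) and Per2 at 357 CPM (next 104). The same library had the highest ependyma score, 4.52 (next 3.52), and the lowest choroid epithelium score, 9.0 (next 10.2). J20+ day library 1 had the highest stromal score, 4.85 (next 3.76). J20+ day library 2 was highest for Hspa5 at 1671 CPM (next 1188) and for Hyou1 at 211 CPM (next 166), and J20+ day library 3 was lowest for Tsc22d3 at 22.4 CPM (next 28.1). In J20- night library 3, Slc22a8 was highest at 329 CPM (next 276.5) and Xbp1 at 238 CPM (next 173), and Cry2 was lowest at 46.1 CPM (next 61.8). J20- day library 1 was lowest for Npas2 at 17.2 CPM (next 21.8) and highest for Hyou1 at 242 CPM (next 171) and Tafa5 at 31.2 CPM (next 28.2). J20- day library 4 was highest for Zbtb20 at 35.7 CPM (next 3.46).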

How the results depend on the processing

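The interaction count of 0 held under RLE and upper-quartile scaling, the non-robust fit, both other filters, and the neural, stromal or surrogate-variable models. It was 9 with DESeq2, 5351 with limma-voom, and 0 to 3409 with each library left out, where only leaving out J20+ night library 2 moved it from 0. Its unadjusted counts ran from 759 to 7198 with a library left out. The J20+ count of 7 was 2 with RLE, 3 with upper-quartile scaling, 79 with DESeq2, 274 with limma-voom, 4 with no filter, 3 with the filter of 10 CPM, 11 with the neural score, 2 with the stromal score, 12 with the surrogate variable, and 2 to 5 with each library left out. The J20- count of 2 was 1390 with DESeq2, 8299 with limma-voom, 5 with the neural score, 5 with the surrogate variable, and 2 to 5449 with each library left out. The average count of 20 was 568 with DESeq2, 5461 with limma-voom, 13 with no filter, 33 with the filter of 10 CPM, and 12 to 78 with each library left out. The young count of 40 was 257 with DESeq2, 2829 with limma-voom, and 15 to 109 with each library left out. At a limit of 1.5-fold, 2165 intervals of all genes and 1 of the core clock lay inside, against 6768 and 12 at 2-fold. The J20- ependyma score differed by 0.447 as a median of the markers and by 1.00 as their mean. The median interaction of all genes was 0.06 with TMM, 0.03 with RLE, -0.06 with upper-quartile scaling and 0.03 with DESeq2; the J20- median was 0.15 with upper-quartile scaling and 0.03 with TMM.

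A further 5 combinations were chosen after seeing the data. The interaction count was 0 in all of them, with 5657 unadjusted p under 0.05 without both J20+ day library 1 and J20+ night library 2. With that pair left out the J20- count was 7155 and the average count 194. With the neural score in the model, the J20- and average counts were 6 and 165 without J20+ night library 2, and 5 and 39 without the pair. With the score, limma-voom gave J20+, J20- and average counts of 32, 147 and 648, and DESeq2 gave 142, 16 and 227. The causes of these shifts were not tested. No paired analysis was possible because the labels give no replicate numbers that the groups share, and the numbers used here follow the order of deposit. With 4 libraries a group, the median SE of 0.37 limits the differences that could be detected.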

Other observations

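The remaining gene lists, cell type markers aside, had small median interactions, and 0 members of any of them were called. Upper-quartile scaling moved the median of all genes to -0.06, against 0.06 with TMM, so the sign of medians near 0 depends on the scaling. Over 50 cytosolic ribosome genes 40 had a negative interaction, against 7161 of all 16065 genes. Their median was -0.17 (-0.18 with the neural score in the model), with median night minus day differences of 0.18 in J20+ and 0.39 in J20- mice. The 46 ribosome genes with the same sign in both genotypes compare with 60.4% of all genes. The 39 nuclear genes of respiration had a median of -0.01 (-0.14 with the score), and 32 of them had the same sign in both genotypes. The 20 cytosolic heat shock genes had a median of 0.16 (-0.01), with night minus day medians of 0.32 in J20+ and 0.19 in J20- mice. The 12 cold-inducible and related RNA-binding genes had a median of -0.11 (0.29), the 17 genes of the PERK and ATF4 branch of the stress response -0.17 (-0.04), and the 21 NRF2 targets 0.04 (-0.21). The 28 antigen presentation and complement genes split into 14 positive and 14 negative interactions with a median of -0.01 (-0.04), and the 30 motile cilia genes had a median of -0.05 (0.06). Over 17 clock output genes, 13 had the same sign in both genotypes and the median interaction was 0.13 (-0.17).

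Among the remaining markers, the median interaction was -0.94 over 14 ependyma, -0.05 over 9 lymphoid and neutrophil, -0.19 over 16 endothelium, -0.20 over 15 fibroblast, -0.20 over 13 mural and -0.47 over 6 erythroid markers. These medians were -0.43, 0.61, 0.12, -0.13, 0.03 and 0.10 with the neural score in the model.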
